A study of Mus musculus with 32 samples.

Results

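Liver gene expression was compared across the day in 8 male wild-type C57BL/6 mice of 12 weeks of age, 8 of the 32 arrays in the series. The mice were singly housed in a steady cycle of 12 h light and 12 h dark, labelled NS, and received no other treatment. Livers were snap-frozen at ZT2, ZT10 and ZT18, where ZT is zeitgeber time in hours counted from lights on. The array titles place 2 mice at ZT2, 3 at ZT10 and 3 at ZT18. The other 24 arrays came from steady mice of 30 weeks and from mice of both ages under chronic jet lag, labelled CJ, and were used for the estimate of spread and as comparison groups. Whole liver was profiled, so hepatocytes dominate the RNA. ZT2 and ZT10 lie in the light and ZT18 in the dark phase, when mice are active and feed. Only 3 times were sampled, so a peak here means the highest of these times and not the true crest of a daily wave.

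The circadian clock of liver cells is a transcription feedback loop. The activators BMAL1 (Arntl) with CLOCK or NPAS2 bind E-box sequences and switch on the Period, Cryptochrome and REV-ERB (Nr1d1, Nr1d2) genes, whose proteins then repress the activators or the Arntl gene itself. The receptor ROR alpha (Rora) drives Arntl against REV-ERB. PAR bZIP factors such as DBP, TEF and HLF carry the rhythm through D-box sequences to enzymes of metabolism, and feeding, body temperature and hormones add rhythms of their own in the liver.

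Values below are log2 of the array signal relative to the 75th percentile of each array, so 0 is the level of that percentile, and levels of different probes are not compared. On the 8 arrays 44.9% to 58.1% of 55681 probes were well above background, and 0 spots were saturated. A probe was kept if it was well above background on every array of at least 1 of the 12 groups. After the other, dim probes were left out, 23109 genes were tested. A call means a Benjamini-Hochberg adjusted p under 0.05 in limma, and differences are those of the limma fit, which can depart somewhat from differences of plain means because arrays on 1 slide share part of their deviation. Where no array of a group was well above background, the fold is a lower bound ("at least") from normalized means, with the dim group set at the lowest signal well above background on each array where its own was lower. Each mouse is a separate animal, and each of the 8 arrays lay on a slide of its own, so no comparison could be made within a slide.

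The labelled tissue matched its markers. The mean level of 12 hepatocyte markers, such as albumin, was between 8.69 and 9.16 on all 8 arrays. Genes of skeletal muscle did not stay level. The mean of 17 muscle markers was 1.29, 1.45 and 0.51 in the ZT18 mice, against -1.99, -2.06 and -4.52 at ZT10 and -3.31 and -2.64 at ZT2. All ZT18 mice lay above all others. The log2 of the summed muscle signal ran from 5.41 to 6.29 at ZT18, from 2.19 to 3.36 at ZT10 and from 2.49 to 2.87 at ZT2. At ZT18 16 of the 17 muscle markers were well above background on every array, and at ZT2 4 were so on no array. Of the 17, 3 passed the test over the 3 times, Ckmt2, Tcap and Myh2 (17.6%, near the 17.5% of all genes). In the steady mice of 30 weeks the means ran from 0.55 to 2.18 at ZT18, from -3.94 to -1.46 at ZT10 and from -4.31 to 0.02 at ZT2, so muscle signal was also highest at ZT18 there. In jet-lagged mice of 12 weeks it was higher at ZT10 (-0.44 to 1.30) than at ZT2 (-3.66 and -1.59), while ZT18 ran from -3.59 to 1.61.

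Pancreatic acinar markers set apart individual mice. The mean of 9 such genes was 1.36 and 0.99 in ZT18 mice 1 and 2 but -2.44 in ZT18 mouse 3, and between -2.49 and -0.72 in the 5 mice of the other times. The summed level, again in log2, ran from 3.06 to 6.12 at ZT18, from 2.81 to 3.60 at ZT10 and from 3.13 to 3.26 at ZT2, and 0 of the 9 genes passed the test. Of 7 erythroid markers, 4 varied with time (57.1%, against 17.5% of all genes), all haemoglobin genes with their highest mean at ZT18. Markers of Kupffer cells (0 of 11 called) and endothelium (0 of 9) gave no call over the 3 times. T and B cells gave 1 of 9 (11.1%), neutrophils 1 of 6 (16.7%), stellate cells 2 of 10 (20%) and bile duct cells 1 of 7 (14.3%). Adipocytes gave 3 of 6 (50%). Their summed log2 level ran from 7.50 to 8.17 at ZT10, 6.47 to 7.29 at ZT2 and 6.14 to 6.79 at ZT18. That list includes Pck1, also a gene of gluconeogenesis, and its mean levels overlapped between ZT10 and ZT18. In whole tissue, fewer cells of a type and less RNA per cell cannot be told apart. Counts are therefore also given from a fit with the mean muscle and acinar levels as covariates. The muscle level was highest in all ZT18 mice, so that fit cannot fully separate ZT18 from muscle level. A call lost there is therefore not shown to come from muscle or acinar signal. The source of the muscle and acinar signal was not tested, nor its part in each difference beyond that fit.

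**Figure D1:**
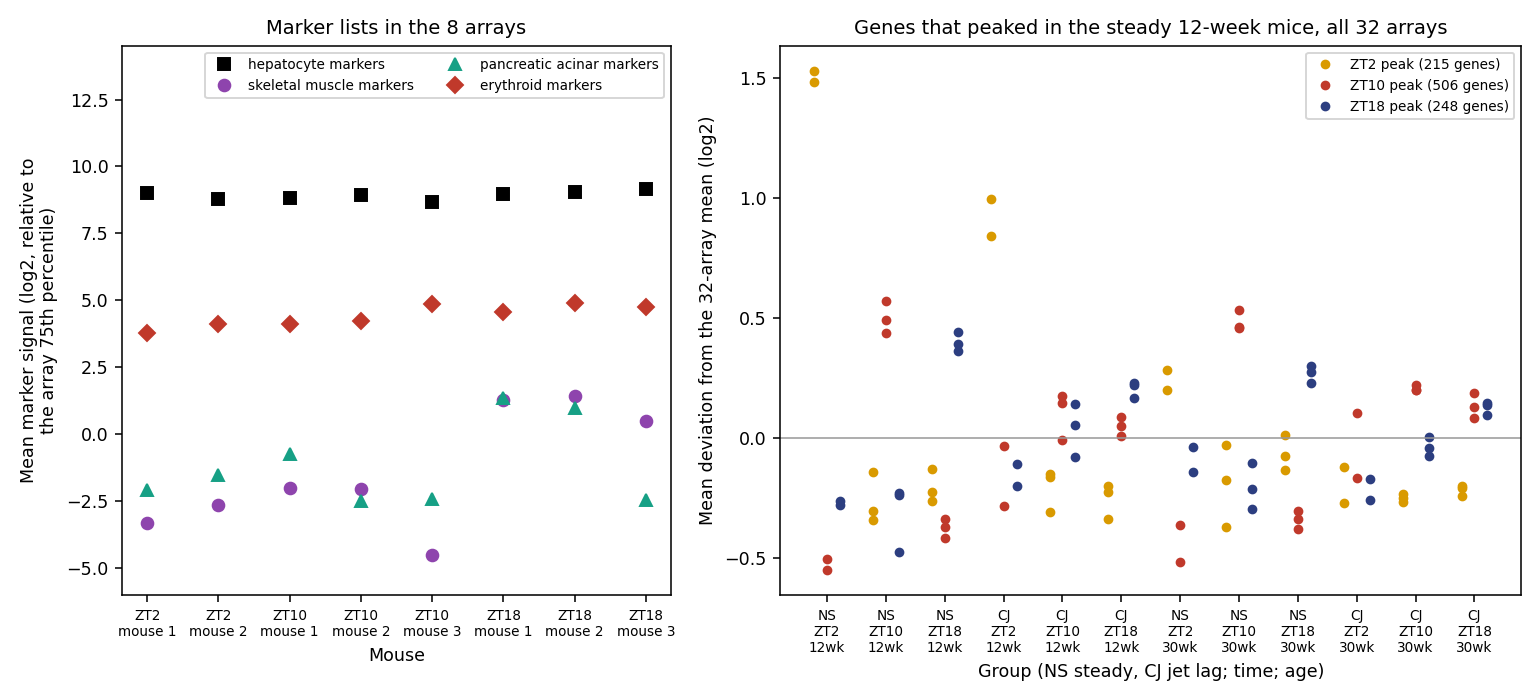
Left, mean log2 signal of 4 marker lists in each of the 8 mice; muscle markers are above 0.5 in the 3 ZT18 mice and below -1.9 in all others, while hepatocyte markers stay between 8.69 and 9.16. Right, mean log2 deviation from the 32-array mean of the genes that peaked at each time in steady 12-week mice, 1 point per array in all 12 groups; the 215 ZT2-peak genes reach 1.48 and 1.53 in the mice that chose them and 0.84 and 1.00 in jet-lagged ZT2 mice of the same age.

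Time of day changed 4054 of the 23109 genes (17.5%) at 12 weeks. Of these, 1052 had their highest mean at ZT2 (4.55% of all genes), 1481 at ZT10 (6.41%) and 1521 at ZT18 (6.58%). The best replicated pair, ZT10 against ZT18 with 3 mice each, gave 3327 calls (14.4%), with 1515 genes higher at ZT10 (6.56%) and 1812 higher at ZT18 (7.84%). The median called difference was 1.58-fold for genes higher at ZT10 and 1.42-fold for genes higher at ZT18, and 379 and 258 of them exceeded 2-fold. ZT10 against ZT2 gave 1950 calls (8.44%), 967 higher at ZT10 (4.18%) and 983 higher at ZT2 (4.25%). ZT18 against ZT2 gave 1254 calls (5.43%), 637 higher at ZT18 (2.76%) and 617 higher at ZT2 (2.67%). The count for ZT10 against ZT18 was 1797 without ZT10 mouse 3, the mouse with the lowest muscle signal, 1783 without ZT18 mice 1 and 2, and 1709 (7.4%) with the muscle and acinar levels in the fit. In that fit ZT18 against ZT2 gave 406 calls and ZT10 against ZT2 1849. The mice of ZT10 and ZT18 did not overlap for 7092 genes (30.7%), called or not, those of ZT10 and ZT2 for 8244 (35.7%) and those of ZT18 and ZT2 for 8949 (38.7%). Groups overlap less readily when 1 of them has fewer mice, as ZT2 has, so these shares are not compared between pairs.

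Peaks were defined by 2 calls, a level higher than at each other time. At ZT2 215 genes peaked (0.93%), at ZT10 506 (2.19%) and at ZT18 248 (1.07%). Troughs, lower than at each other time, numbered 221 at ZT2 (0.956%), 570 at ZT10 (2.47%) and 213 at ZT18 (0.922%). ZT10 thus held the most peaks and the most troughs in the fit as reported. With the muscle and acinar levels in the fit, 322 of the 506 ZT10 peaks and 411 of the 570 ZT10 troughs passed both tests again, against 41 of the 248 ZT18 peaks and 51 of the 213 ZT18 troughs. At ZT2 121 of 215 peaks and 105 of 221 troughs did so. Muscle level and ZT18 went together in these mice, so a ZT18 effect and a muscle effect cannot be told apart in these counts. The peak and trough genes picked below for the size of their change had by rule to pass in both fits. Their mice at that time also had by rule to lie all above, or all below, the mice of both other times.

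Among the activators of the clock, Arntl and Clock were higher at ZT18 than at ZT10, and Npas2 peaked at ZT2. Of the 5 activator genes measured, 4 varied with time (80%, against 17.5% of all genes). The same number did with the marker levels in the fit. Arntl, which encodes BMAL1, measured 1.82 and 1.95 at ZT2, -3.99, -3.79 and -3.65 at ZT10, and 1.61, 1.19 and 1.45 at ZT18. The ZT10 mice lay far below both other groups, which did not differ from each other beyond the test (adjusted p = 0.79). Arntl was lower at ZT10 than at ZT18 by 5.43 ± 0.52 (SE), a 43.3-fold difference (n = 3 and 3, adjusted p = 6.3e-07). At ZT10 only 2 of 3 mice were well above background for Arntl, so the size of this fold rests on values near background. Clock, the partner of BMAL1, was also lowest at ZT10, in a smaller span, with 0.51 and 0.55 at ZT2, -0.96, -1.01 and -1.24 at ZT10 and 0.76, 0.56 and 0.53 at ZT18 (ZT10 minus ZT18 -1.63 ± 0.18, adjusted p = 4e-06).

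Npas2, a paralogue of Clock, was well above background only at ZT2, where both mice measured -3.26. The other mice lay between -6.69 and -5.55, and ZT2 exceeded ZT10 at least 1.89-fold (adjusted p = 0.0002) and ZT18 at least 1.32-fold (adjusted p = 0.004). Rora did not pass the test (range 0.51, adjusted p = 0.2).

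All 10 repressor genes varied with time, against 17.5% of all genes. At ZT10 6 were higher than at ZT18 and 1, Cry1, was lower, and the median ZT10 minus ZT18 difference of the list was 1.73, against -0.01 over all genes tested. Nr1d1, which encodes REV-ERB alpha, measured -0.20 and 0.67 at ZT2 and 0.60, 1.08 and 1.11 at ZT10. At ZT18 it was -4.76, -5.95 and -3.46, not well above background in any mouse, so ZT10 exceeded ZT18 at least 24.1-fold (adjusted p = 1.1e-06) and ZT2 exceeded ZT18 at least 14.9-fold (adjusted p = 5.8e-05). Levels at ZT2 and ZT10 did not differ beyond the test (adjusted p = 0.66). Its paralogue Nr1d2 peaked at ZT10, with 1.15, 1.67 and 1.42 there, -0.20 and -0.58 at ZT2 and -1.18, -0.46 and -0.98 at ZT18 (ZT10 minus ZT18 2.36 ± 0.24, adjusted p = 1.3e-06).

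The 3 Period genes, whose products form the repressor complex with the Cryptochromes, were all lowest at ZT2. Per1 measured -0.68 and -0.48 at ZT2, 3.70, 3.82 and 3.42 at ZT10, and 2.60, 1.68 and 1.47 at ZT18. It peaked at ZT10, 4.25 ± 0.41 above ZT2 (adjusted p = 3.3e-07) and 1.97 ± 0.37 above ZT18 (adjusted p = 0.00082). Per3 measured -6.18 and -6.15 at ZT2, where it was not well above background, -1.30, -1.13 and -0.82 at ZT10, and -2.90, -2.54 and -3.33 at ZT18, where 2 of 3 mice were above background. ZT10 exceeded ZT2 at least 7.94-fold (adjusted p = 1.4e-08) and exceeded ZT18 by 2.08 ± 0.35 (adjusted p = 0.00034). Per2 measured -4.14 and -3.18 at ZT2, with 1 of 2 mice above background, -0.50, -0.58 and -0.78 at ZT10, and -0.63, -0.40 and -0.35 at ZT18. Per2 did not differ between ZT10 and ZT18 beyond the test (-0.14 ± 0.31, adjusted p = 0.81).

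Cry1 measured -1.93 and -1.63 at ZT2, -3.43, -3.60 and -3.37 at ZT10, and -0.84, -1.10 and -1.30 at ZT18. Cry1 was lower at ZT10 than at ZT18 by 2.53 ± 0.35 (adjusted p = 4.4e-05), the opposite order to Per1. Cry2 varied less (range 0.80, adjusted p = 9.3e-05) and was lowest at ZT2. Ciart, which encodes the repressor CHRONO, was well above background only at ZT10, with 1.25, 0.95 and 0.93, against -6.09 and -6.46 at ZT2 and -3.95, -3.94 and -3.71 at ZT18. ZT10 exceeded ZT18 at least 26.1-fold (adjusted p = 5e-07). Bhlhe40 (DEC1), which competes for E-boxes, was lowest at ZT2 (ZT10 minus ZT2 1.96 ± 0.30, adjusted p = 0.00015), and Bhlhe41 (DEC2) peaked at ZT10, with a call against ZT18 (adjusted p = 0.0089) that was lost with the muscle and acinar levels in the fit (adjusted p = 0.11).

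**Figure D2:**
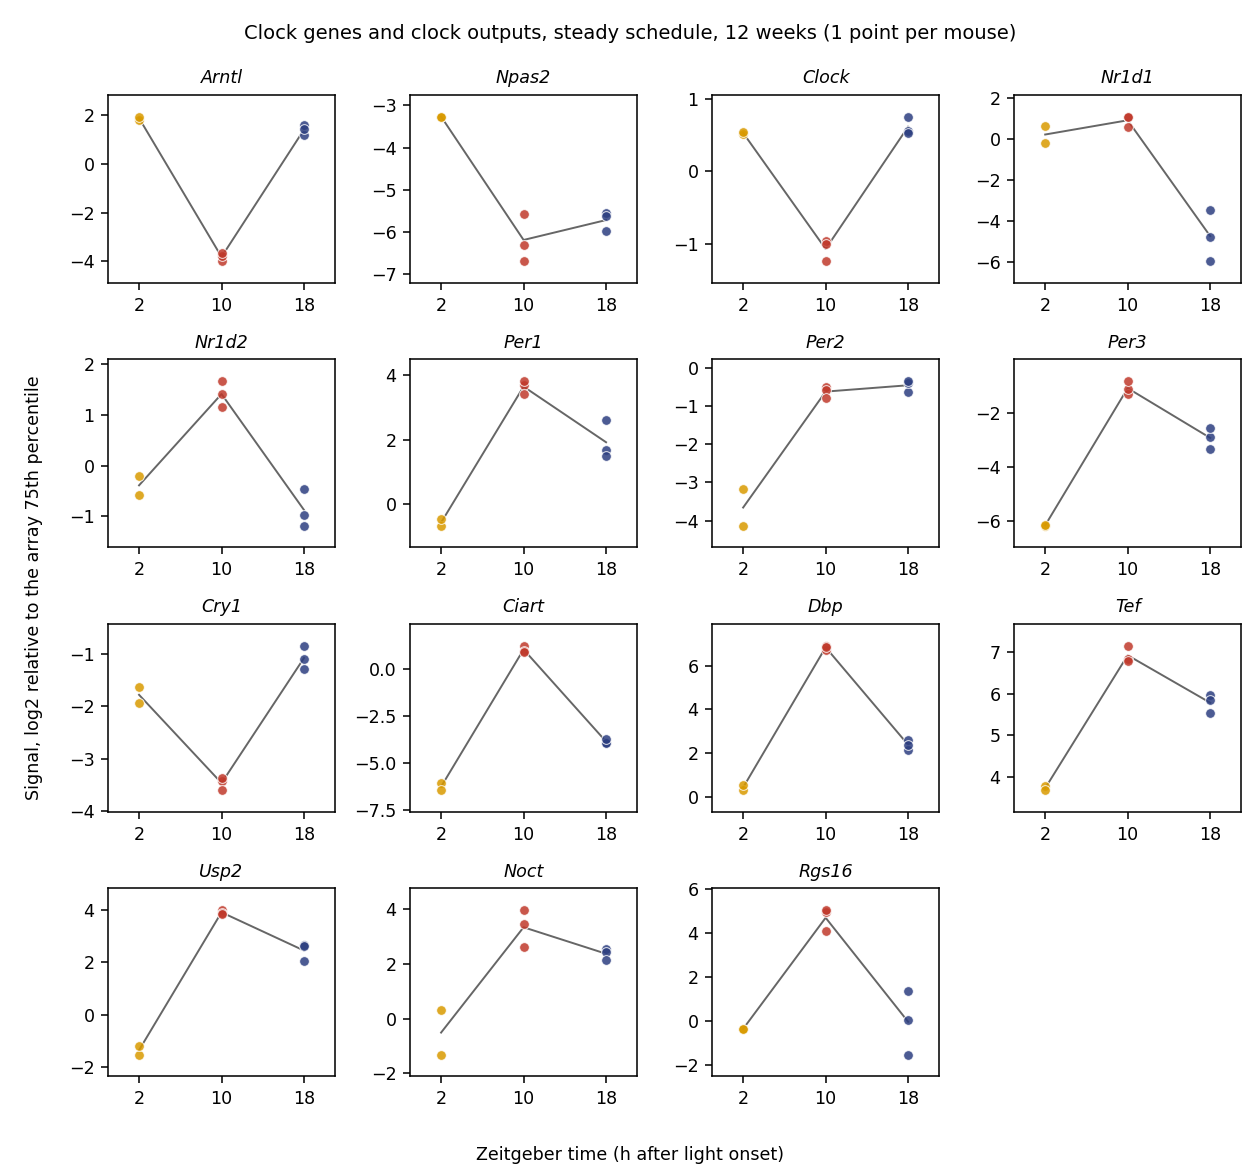
Log2 signal relative to the array's 75th percentile for 3 clock activators, 7 repressors and 5 outputs, 1 point per mouse against zeitgeber time in hours; lines join group means and each panel has its own vertical scale. Arntl, Clock and Cry1 are lowest at ZT10, when Ciart, Dbp, Per1 and Per3 are highest.

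The promoters of the clock and clock output genes were searched for the sites through which this loop works. Stretches are shown only for genes with a match, which were not in general those that moved most. Dbp, Arntl, Nr1d1, Rgs16 and Usp2, with fitted ranges from 5.38 to 6.55, were not among the genes with an E-box or D-box match. Sequences are from RefSeq (assembly GRCm38.p6), 5′ to 3′ on the strand of the gene, with the matches in capitals. In the 250 bases before the start site the palindromic E-box CACGTG was present in 9.32% of 11228 genes tested that had a promoter in the table, and in 53 of 300 genes (17.7%) that peaked at ZT10. It was present in 6 of 30 clock and clock output genes with a promoter. Of these Ciart had the largest fitted range, which is not a measured one because it was above background at ZT10 only; Per1 and Tef were added after their values were seen. The stretch of Ciart lies at chr3:95882229-95882317 on the minus strand, that of Per1 at chr11:69098738-69098833 on the plus strand and that of Tef at chr15:81802501-81802596 on the plus strand.
Ciart: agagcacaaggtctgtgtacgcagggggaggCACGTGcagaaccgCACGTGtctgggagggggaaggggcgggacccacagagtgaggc
Per1: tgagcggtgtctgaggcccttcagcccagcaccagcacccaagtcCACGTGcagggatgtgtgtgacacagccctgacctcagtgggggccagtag
Tef: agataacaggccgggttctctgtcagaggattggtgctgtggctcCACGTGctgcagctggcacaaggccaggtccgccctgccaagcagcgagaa

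All 3 genes peaked at ZT10, and the Ciart stretch holds 2 matches. A match is only a run of letters in this window and does not show that a factor binds there. The RORE, the site of the REV-ERB and ROR receptors, was searched by its name in the same window. It was present in 0 of 12 core clock genes with a promoter and in 0.232% of genes tested. The D-box, searched as TTATGTAA or TTACGTAA on both strands, was present in 0.917% of genes tested, in 8 of 300 genes (2.67%) that peaked at ZT10 and in 1 of the 30 clock genes, Per3. Its stretch, at chr4:151044771-151044870 on the minus strand, holds 2 matches.
Per3: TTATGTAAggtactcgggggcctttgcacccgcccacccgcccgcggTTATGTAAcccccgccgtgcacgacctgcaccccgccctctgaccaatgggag
The RNA of Per3, like that of Dbp and Tef, was highest at ZT10. Protein levels of DBP and TEF were not measured here, and their action on Per3 was not tested.

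Among the 22 clock outputs 20 varied with time (90.9%, against 17.5% of all genes). Of the 20, 13 had the highest mean at ZT10 and 6 at ZT2. The same count, 20, held with the muscle and acinar levels in the fit. Dbp, the D-box activator, measured 0.30 and 0.55 at ZT2, 6.73, 6.91 and 6.85 at ZT10, and 2.15, 2.59 and 2.38 at ZT18. The 3 groups did not overlap, and ZT10 was 24.9-fold above ZT18 (4.64 ± 0.44, adjusted p = 6e-07) and 93.6-fold above ZT2 (6.55 ± 0.49, adjusted p = 7.6e-09). Tef measured 3.77 and 3.67, then 6.84, 7.17 and 6.79, then 5.53, 5.97 and 5.86 at ZT2, ZT10 and ZT18 (ZT10 minus ZT18 1.27 ± 0.20, adjusted p = 0.00018). Hlf, the other PAR bZIP gene, was also highest at ZT10 (range 1.44, adjusted p = 3.1e-06). Nfil3, which encodes a repressor of D-boxes, ran the other way, with means of 4.61 at ZT2, 1.92 at ZT10 and 4.13 at ZT18 (ZT10 minus ZT18 -2.26, adjusted p = 6.4e-06).

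Usp2, a ubiquitin protease, measured -1.53 and -1.18 at ZT2, 4.00, 3.88 and 3.86 at ZT10, and 2.68, 2.64 and 2.03 at ZT18 (ZT10 minus ZT18 1.68 ± 0.38, adjusted p = 0.0047). Noct, the deadenylase-related Nocturnin, had its trough at ZT2 (-1.32 and 0.30, against 3.45, 3.97 and 2.60 at ZT10), and its ZT10 and ZT18 levels did not pass the test against each other (1.16 ± 0.40, adjusted p = 0.053). Rgs16, a regulator of G protein signalling known as a fasting-linked clock output in liver, measured -0.35 and -0.37 at ZT2, 4.08, 4.95 and 5.04 at ZT10, and 0.05, -1.54 and 1.37 at ZT18. Its ZT18 mice differed by nearly 3 log2 units among themselves, and all ZT10 mice lay above them (5.15 ± 0.97, adjusted p = 0.00088). Wee1, the mitosis-inhibiting kinase, Upp2 and Klf10 also peaked at ZT10.

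Other genes of largest ZT10 peak were Nrg4, Gpcpd1, Cyp2g1, Mt1 and Pcsk4. Nrg4, a secreted ligand of the ErbB receptor family, measured 2.14, 2.46 and 2.00 at ZT10, -1.42 and -0.97 at ZT2 and -0.66, -0.13 and -0.46 at ZT18 (ZT10 minus ZT18 2.77 ± 0.33, adjusted p = 6.4e-06). Gpcpd1, a glycerophosphocholine phosphodiesterase, measured 3.56, 3.71 and 3.60 at ZT10 against 1.31 and 0.34 at ZT2 and 0.58, 0.67 and 0.55 at ZT18 (3.11 ± 0.39, adjusted p = 1.3e-05). Mt1, a metal-binding metallothionein, measured 4.86, 6.14 and 5.87 at ZT10, while all 5 other mice lay between 2.94 and 3.15 (2.60 ± 0.32, adjusted p = 1.1e-05). In each the ZT10 mice stood above every other mouse, as the rule of choice required. Cyp2g1, Pcsk4 and, for ZT10 against ZT18, Gnat1 differed by 3.05, 2.49 and 2.77 in the same direction.

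At the ZT10 trough the largest differences were in Arntl, Elovl3, Cdkn1a and Lrfn3. Elovl3, a fatty acid elongase under clock and sex hormone control, measured 6.78 and 6.56 at ZT2, 1.70, 2.73 and 2.11 at ZT10, and 6.24, 5.92 and 5.85 at ZT18, 16.1-fold lower at ZT10 than at ZT18 (-4.01 ± 0.52, adjusted p = 2.1e-05). Cdkn1a, the cell cycle inhibitor p21, measured -0.46 and -0.44, then -3.01, -3.44 and -3.44, then 0.67, -0.36 and -0.48 (-3.43 ± 0.53, adjusted p = 0.00012). In both genes the ZT10 mice lay below every other mouse, again as the rule of choice required. Lrfn3, Ddc (aromatic amino acid decarboxylase), Tubb2a (a beta tubulin) and Cyp26b1 (a retinoic acid hydroxylase) were lower at ZT10 than at ZT18 by 3.06, 2.95, 2.89 and 2.91. Pdk4, which restrains pyruvate oxidation, was lower at ZT10 than at ZT18 as well (-2.60, adjusted p = 7e-05).

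Peaks at ZT18 were smaller. The median of the smaller of the 2 differences was 0.48 for the 248 genes, against 0.64 for the 506 ZT10 peaks, and 19 and 120 of them exceeded 2-fold over both other times. H3c15 led them, a replication-dependent histone H3 gene of a family of near-identical copies that a probe may not tell apart. It measured 2.52, 2.47 and 2.23 at ZT18, 0.53 and 0.66 at ZT2, and -0.78, -1.26 and -1.73 at ZT10 (ZT10 minus ZT18 -3.73 ± 0.35, adjusted p = 6e-07). H3c14 of the same family had the same order (-1.74 ± 0.19, adjusted p = 2.2e-06). Odc1, the first enzyme of polyamine synthesis, measured 4.31, 4.58 and 4.62 at ZT18 and between 3.19 and 3.77 in all other mice (-0.98 ± 0.13, adjusted p = 3.6e-05). Dio1, which activates thyroid hormone, measured 5.11, 5.26 and 5.36 at ZT18 and between 3.62 and 4.74 elsewhere. Neu2 (a sialidase), Ccdc151 and the chaperone Hspa4l also peaked at ZT18, and Unc93a had its trough there (2.19 ± 0.33 lower than at ZT10, adjusted p = 9e-05).

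The ZT2 peak needs a closer reading of its level. Of its 215 genes, 69 (32.1%) were not well above background on any array at ZT10 or ZT18, against 8 of the 506 ZT10 peaks and 0 of the 248 ZT18 peaks. The filter let a gene in through the 2 arrays of a ZT2 group but needed 3 arrays at ZT10 or ZT18, which favours ZT2 in this count. The 215 genes were chosen for being high in the 2 ZT2 mice, whose means over them were 1.53 and 1.48 relative to all 32 arrays. In jet-lagged ZT2 mice of the same age the mean was 0.84 and 1.00, and in steady ZT2 mice of 30 weeks 0.20 and 0.29. The 69 dim genes averaged 2.43 and 2.54 in the same 2 mice that chose them. They were also chosen for being dim on the steady ZT10 and ZT18 arrays of 12 weeks, so that contrast was fixed in advance. Jet-lagged ZT2 mice of 12 weeks, whose levels did not define the peaks, measured 1.34 and 1.69. The other 28 arrays, the steady ZT10 and ZT18 arrays of 12 weeks included, ran from -0.64 to -0.02. The 4 arrays of ZT2 at 12 weeks, both schedules, all lay at the first position of their slide. At that position 3 arrays of other groups, among them a steady ZT10 array of 12 weeks, ran from -0.40 to -0.24. Age, time and any handling particular to these 4 arrays cannot be told apart. At 30 weeks 133 of the 215 genes (61.9%) had their highest mean at ZT2, against 501 of 506 for ZT10 and 229 of 248 for ZT18.

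Igfbp1 and Grk5 were ZT2 peaks well above background in all 8 mice. Igfbp1, a liver-secreted binding protein of insulin-like growth factors that insulin represses, measured 7.32 and 6.56 at ZT2, 4.67, 4.95 and 4.02 at ZT10, and 3.60, 1.97 and 5.08 at ZT18. ZT2 exceeded ZT10 by 2.59 ± 0.64 (adjusted p = 0.011) and ZT18 by 3.32 ± 0.64 (adjusted p = 0.0036), though the ZT18 mice spread over 3 log2 units. Grk5, a kinase of G protein-coupled receptors, measured 0.47 and 0.75, then -2.38, -2.36 and -2.37, then -1.26, -1.44 and -1.52 (ZT2 above ZT10 by 3.11 ± 0.27, adjusted p = 6.9e-08). Loxl4, a lysyl oxidase homologue, was 3.91 ± 0.51 higher at ZT2 than at ZT10 (adjusted p = 2.1e-05), with 2 of 3 mice above background at each of ZT10 and ZT18. Sly, Marchf11, Vmn2r80 and H2-Eb2, the other ZT2 peaks of largest difference, were well above background at ZT2 only. At the ZT18 trough Vmn2r65, of the vomeronasal receptor family, and Srrm4 were also above background on no ZT18 array, and the ZT10 minus ZT18 difference of Vmn2r65 changed sign with another background correction.

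Most heat shock genes, which encode cytosolic chaperones and their partners, had their highest mean at ZT18. Of 23 measured, 17 varied with time (73.9%, against 17.5% of all genes). At ZT18 15 were higher than at ZT10, 2 were higher at ZT10, and 12 peaked at ZT18. Over all genes 7.84% were higher at ZT18, 6.56% were higher at ZT10, and 1.07% peaked at ZT18. The count of ZT18 peaks was 5 with the muscle and acinar levels in the fit, 5 without ZT2 mouse 1, 4 without ZT2 mouse 2 and 6 without ZT18 mice 1 and 2. The list's median ZT10 minus ZT18 difference was -0.84. With the muscle and acinar levels in the fit, 15 varied and 13 differed between ZT10 and ZT18. Hsp90aa1, the inducible HSP90, measured 4.85 and 4.81 at ZT2, 3.94, 3.80 and 3.55 at ZT10, and 6.03, 6.06 and 5.75 at ZT18. The 3 groups did not overlap, and ZT18 was 4.48-fold above ZT10 (2.16 ± 0.22, adjusted p = 1.4e-06). Hsph1, of the HSP110 family, measured 2.80 and 3.14, then 2.72, 2.15 and 1.72, then 3.96, 4.28 and 4.40 (ZT10 minus ZT18 -2.08 ± 0.30, adjusted p = 5.5e-05). Hspb1, a small heat shock protein, was 2.02 ± 0.32 lower at ZT10 than at ZT18 (adjusted p = 0.00014) and did not differ between ZT2 and ZT18 beyond the test (adjusted p = 0.15).

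The 2 genes of this list that were higher at ZT10 encode cold-induced RNA-binding proteins, not chaperones. Cirbp had means of 2.47 at ZT2, 2.70 at ZT10 and 1.19 at ZT18 (ZT10 minus ZT18 1.53, adjusted p = 5.5e-05), and Rbm3 peaked at ZT10 (0.44, adjusted p = 0.041). The heat shock element, searched by its name in the 250 bases before the start site, was present in 0.436% of genes tested and in 2 of 18 heat shock genes with a promoter, Hspd1 and Hspe1, which share a divergent promoter. Hspe1, the mitochondrial chaperonin HSP10, was the one of these that passed the test. Its stretch, at chr1:55088019-55088121 on the plus strand, carries 2 overlapping matches.
Hspe1: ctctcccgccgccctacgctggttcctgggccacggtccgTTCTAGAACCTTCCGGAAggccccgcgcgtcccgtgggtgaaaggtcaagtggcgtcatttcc
Hspe1 measured 6.05 and 6.01 at ZT2, 5.90, 5.99 and 5.75 at ZT10 and 6.57, 6.46 and 6.21 at ZT18. Its difference was small (-0.47 ± 0.13, adjusted p = 0.014) and did not pass with the marker levels in the fit (adjusted p = 0.075).

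The unfolded protein response, which raises chaperones and degradation factors of the endoplasmic reticulum when folding capacity is short, was lowest at ZT10. Of 33 genes measured 22 varied with time (66.7%, against 17.5% of all genes). At ZT18 22 were higher than at ZT10, and 0 were higher at ZT10. Over all genes 7.84% were higher at ZT18 and 6.56% at ZT10. ZT10 against ZT2 gave 18 calls and ZT18 against ZT2 only 2, and the median ZT10 minus ZT18 difference was -0.51. Acinar cells are rich in these chaperones, and their markers were high in ZT18 mice 1 and 2 but not in mouse 3. Their part in these counts was not tested. With the muscle and acinar levels in the fit, 19 varied and 14 differed between ZT10 and ZT18, and without ZT18 mice 1 and 2 the counts were 16 and 13. Hspa5 (BiP), the main chaperone of this compartment, measured 7.58 and 7.61 at ZT2, 6.76, 6.38 and 6.27 at ZT10, and 7.87, 7.93 and 7.90 at ZT18. The ZT10 mice lay below all others, and the ZT10 minus ZT18 difference was -1.45 ± 0.18 (adjusted p = 1.1e-05).

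Creld2 measured 5.48 and 5.47 at ZT2, 4.24, 3.73 and 3.79 at ZT10, and 5.79, 6.14 and 6.13 at ZT18 (-2.32 ± 0.32, adjusted p = 4.1e-05). Manf, a secreted stress protein, Hyou1, a chaperone, and Sdf2l1 were lower at ZT10 than at ZT18 by 1.61, 1.55 and 1.53, although Sdf2l1 did not pass with the marker levels in the fit (adjusted p = 0.1). The ERSE, the element bound by ATF6 with NF-Y, was searched by its name. It was present in 0.151% of genes tested, in 8 of the 390 genes (2.05%) with a trough at ZT10 and a promoter in the table, and in 9 of 26 genes of the list, which was built around this pathway. Creld2 had the largest range of the 9; Hspa5 and Syvn1 were added after their values were seen. The stretches lie at chr15:88819475-88819583, chr2:34771980-34772088 and chr19:6046487-6046575, all on the plus strand.
Creld2: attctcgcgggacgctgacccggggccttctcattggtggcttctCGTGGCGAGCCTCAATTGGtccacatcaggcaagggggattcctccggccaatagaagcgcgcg
Hspa5: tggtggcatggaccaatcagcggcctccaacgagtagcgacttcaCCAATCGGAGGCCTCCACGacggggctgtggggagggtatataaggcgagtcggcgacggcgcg
Syvn1: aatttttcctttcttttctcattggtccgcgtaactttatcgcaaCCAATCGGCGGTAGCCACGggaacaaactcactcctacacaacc
Syvn1, a ubiquitin ligase of protein quality control, measured 6.25 and 6.29 at ZT2, 5.47, 5.24 and 5.04 at ZT10, and 6.28, 6.22 and 6.52 at ZT18 (-1.23 ± 0.24, adjusted p = 0.001). In all 3 genes the ZT10 mice lay below all other mice.

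**Figure D3:**
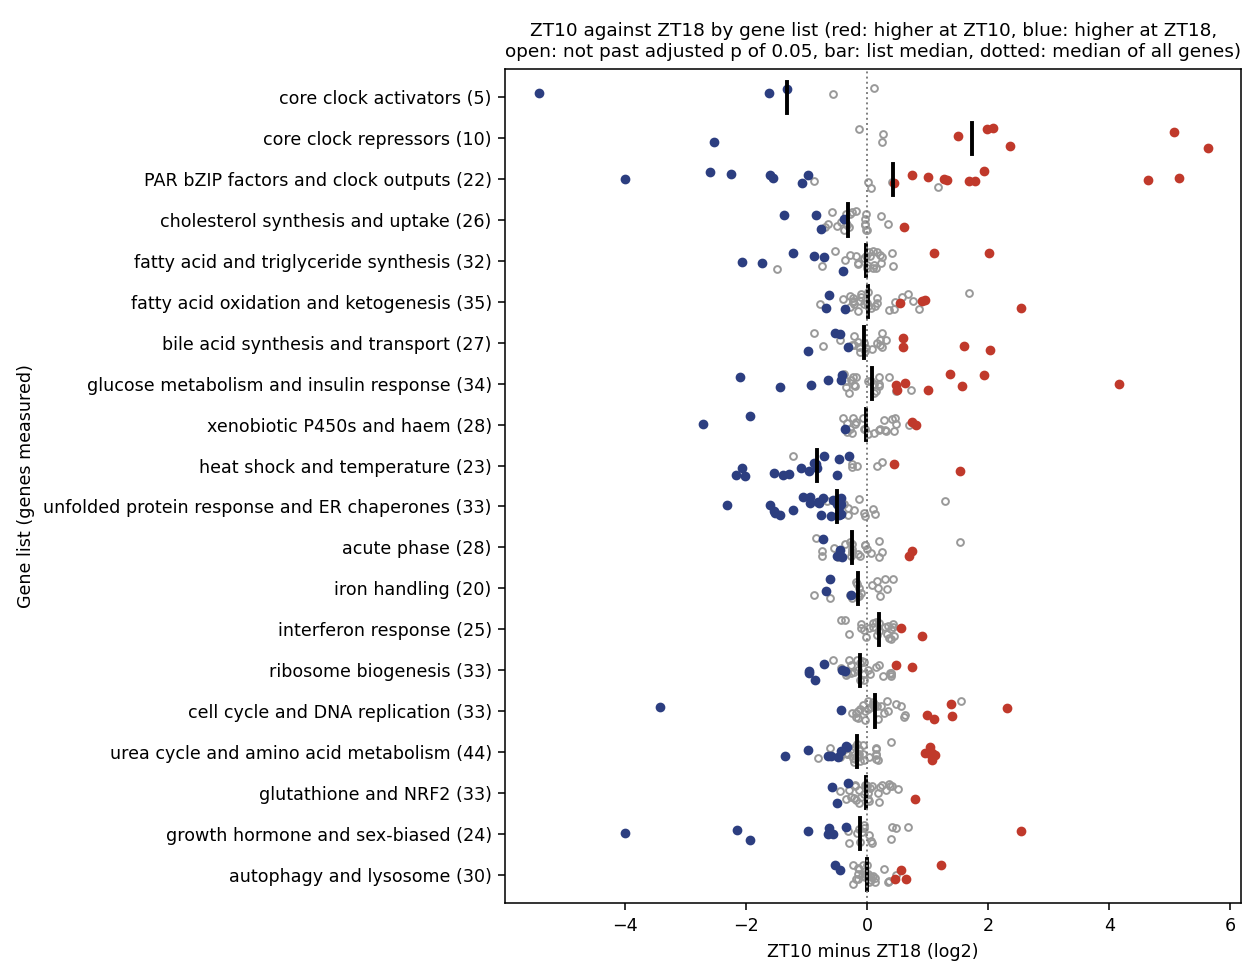
ZT10 minus ZT18 difference (log2) of each measured gene in 20 lists; red and blue points passed the test, higher at ZT10 or at ZT18, open points did not, and black bars are list medians. Heat shock genes (median -0.84) and genes of the unfolded protein response (-0.51) lie mostly to the left, core clock repressors (1.73) to the right, and most metabolic lists are split around the median of all genes (-0.01).

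Metabolic lists held members that moved in both directions. Of 27 bile acid genes 13 varied with time (48.1%, against 17.5% of all genes). With the marker levels in the fit 10 did, and with only the 8 arrays in the fit 5 did. Cyp7a1, which sets the rate at which cholesterol is turned into bile acids, measured 0.71 and 1.75 at ZT2, 3.67, 4.05 and 3.24 at ZT10, and 3.46, 3.25 and 3.68 at ZT18. It was lower at ZT2 than at ZT10 (2.45 ± 0.41, adjusted p = 0.00032) and ZT18 (adjusted p = 0.0032), and the latter groups overlapped. Nr0b2, which encodes SHP, a repressor of Cyp7a1, measured 0.98 and 2.28 at ZT2, -0.06, -0.18 and 0.30 at ZT10, and 1.23, 0.39 and 0.74 at ZT18. It was higher at ZT2 than at ZT10 (adjusted p = 0.0073), while ZT2 and ZT18 overlapped (adjusted p = 0.25). The partner transporters Abcg5 and Abcg8, which together export sterols into bile, both peaked at ZT10. Abcg5 measured 4.43 and 4.31, then 5.59, 5.74 and 5.53, then 3.92, 3.99 and 4.37 (ZT10 minus ZT18 1.60 ± 0.19, adjusted p = 7.9e-06), and Abcg8 differed by 2.03 ± 0.26 (adjusted p = 1.9e-05).

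Of 26 cholesterol genes 7 varied (26.9%, against 17.5% of all genes), 5 with the highest mean at ZT2, and 3 varied with the marker levels in the fit, in which 2583 of all 23109 genes did. The 7 became 2 without ZT10 mouse 3, 3 without ZT10 mouse 1, 4 without ZT2 mouse 1, ZT18 mouse 2 or ZT18 mouse 3, 2 with slide as a fixed block and 1 with mouse number as a block. Mvd, an enzyme of the mevalonate pathway, measured 3.06 and 2.97, then 1.86, 1.31 and 1.42, then 3.27, 2.96 and 2.96 (ZT10 minus ZT18 -1.39 ± 0.26, adjusted p = 0.00093). Hmgcs1, Lss and Insig1 were lower at ZT10 than at ZT2 by 1.29, 1.15 and 0.97 (adjusted p = 0.028, 0.014 and 0.019).

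Of 32 lipogenic genes, for making fatty acids and triglycerides, 14 varied (43.8%, against 17.5% of all genes). Lpin1, which makes diacylglycerol and also coactivates transcription, peaked at ZT10 (3.79, 3.46 and 2.86, against 1.31 and 1.45 at ZT2 and 1.73, 1.92 and 1.04 at ZT18; ZT10 minus ZT18 2.01 ± 0.34, adjusted p = 0.0003). Insig2, which holds back SREBP, was lowest at ZT10, with 6.25 and 5.65, then 3.20, 3.66 and 3.19, then 4.73, 5.06 and 5.16 (-1.74 ± 0.30, adjusted p = 0.00032). Thrsp, a nuclear lipogenic protein, was lowest at ZT2 (ZT18 minus ZT2 1.67 ± 0.35, adjusted p = 0.0061). Members of this list thus had their lows at different times.

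Of 35 genes of fatty acid oxidation 9 varied (25.7%, against 17.5% of all genes), 0 with the highest mean at ZT2. The 9 became 5 without ZT2 mouse 2 and 3 with only the 8 arrays in the fit. Cpt1a, which admits fatty acids to mitochondria, measured 4.74 and 4.50, then 5.87, 5.90 and 5.49, then 4.42, 4.88 and 5.14 (ZT10 minus ZT18 0.90 ± 0.19, adjusted p = 0.0023). Its regulator Ppara peaked at ZT10 too (ZT10 minus ZT2 1.21 ± 0.20, adjusted p = 0.00027), although the ZT18 call was lost with the marker levels in the fit (adjusted p = 0.048, then 0.21). Acot3 was 2.54 ± 0.74 higher at ZT10 than at ZT18 (adjusted p = 0.023, and 0.098 with the marker levels).

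Of 34 genes of glucose metabolism 20 varied (58.8%, against 17.5% of all genes), 10 of them highest at ZT10, 7 at ZT18 and 3 at ZT2. With the marker levels in the fit 14 varied. Ppp1r3c, which targets a phosphatase to glycogen, measured 3.86 and 4.44 at ZT2, 1.59, 2.19 and 1.82 at ZT10, and 4.32, 3.37 and 4.25 at ZT18 (-2.11 ± 0.40, adjusted p = 0.00095). Ppp1r3g, of the same family, ran the other way, 4.15 ± 1.12 higher at ZT10 (adjusted p = 0.015), with 1 of 3 ZT18 mice above background. That call was lost with the marker levels in the fit (adjusted p = 0.1). Gys2, the liver glycogen synthase, peaked at ZT10 with means of 5.33, 7.22 and 6.28 at ZT2, ZT10 and ZT18 (adjusted p = 0.0001 against ZT18), and Pfkfb3, which makes a glycolytic activator, was 2.96 ± 0.47 higher at ZT10 than at ZT2 (adjusted p = 0.00021). Pck1, of gluconeogenesis and also expressed in adipocytes, was 1.57 higher at ZT10 than at ZT18 (adjusted p = 0.0032).

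Of 28 genes of xenobiotic P450s and haem 11 varied (39.3%, against 17.5% of all genes), 0 of them highest at ZT2. The 11 became 7 without ZT2 mouse 1 or without ZT18 mouse 3. Alas1, the first enzyme of haem synthesis, measured 5.76 and 5.33 at ZT2, 9.02, 8.79 and 8.45 at ZT10, and 7.81, 8.49 and 8.79 at ZT18. Both ZT2 mice lay more than 2 log2 units below every other mouse (ZT10 minus ZT2 3.41 ± 0.49, adjusted p = 6.4e-05), and ZT10 and ZT18 overlapped. Por, which passes electrons to the P450s, peaked at ZT10 (4.80 and 4.88, then between 6.78 and 7.10, then 6.30, 6.27 and 6.48; ZT10 minus ZT2 2.21 ± 0.25, adjusted p = 2.5e-06), but its ZT18 call was lost with the marker levels in the fit (adjusted p = 0.028, then 0.072). Cyp2b10, a target of the receptor CAR, peaked at ZT18, with 4.01, 2.31 and 2.90 against 0.09, -0.06 and 0.15 at ZT10 (-2.72 ± 0.45, adjusted p = 0.00024). It was the 1 ZT18 peak of this list in the fit as reported. The list held 0 ZT18 peaks with the marker levels in the fit, without either ZT2 mouse, and without ZT18 mouse 1 or mouse 3. It also held 0 with slide as a fixed block or mouse number as a block. Cyp2a4, of a family of near-identical genes, was 2.15 ± 0.20 lower at ZT2 than at ZT10 (adjusted p = 2.1e-07).

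**Figure D4:**
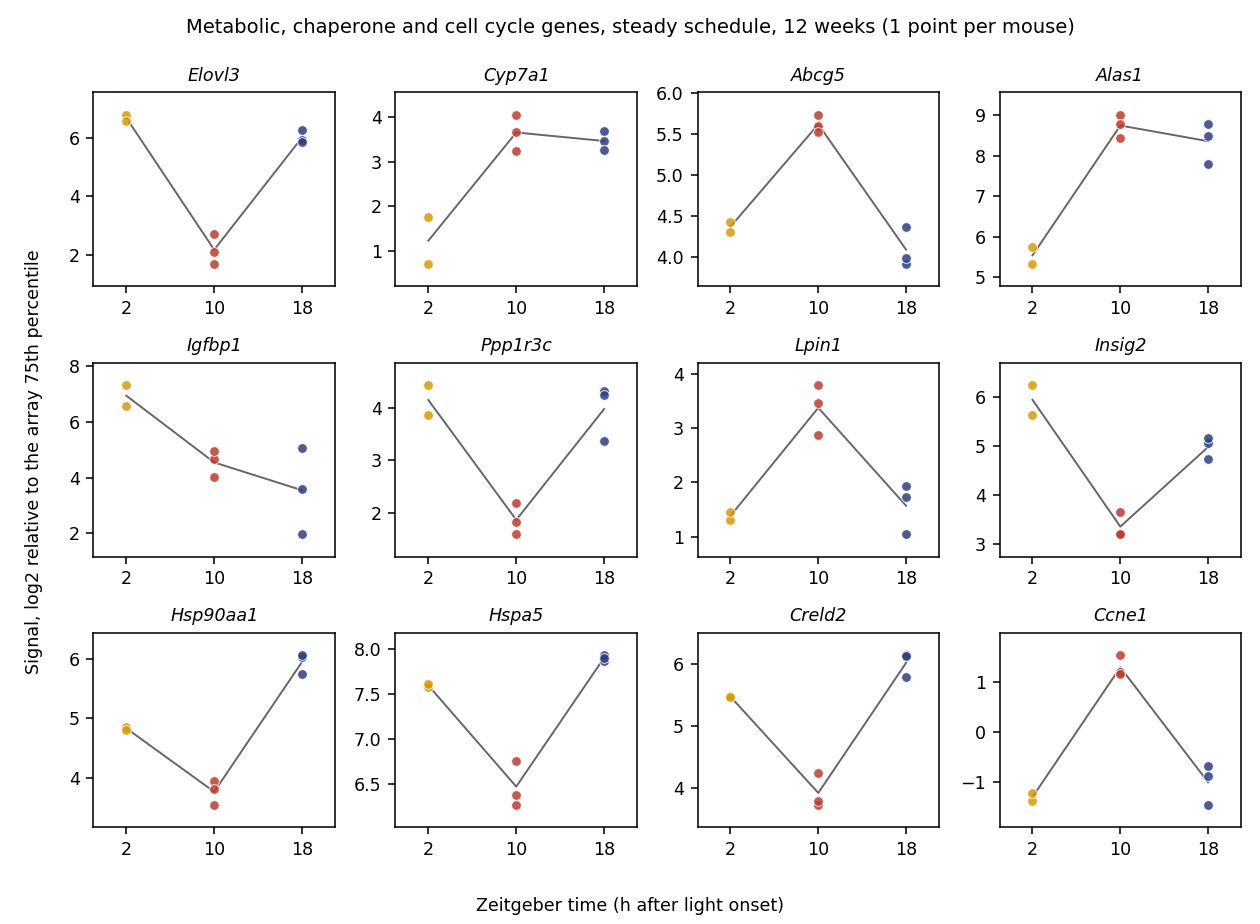
Log2 signal relative to the array's 75th percentile of 12 genes of lipid, bile acid, haem, glucose, chaperone and cell cycle lists against zeitgeber time in hours, 1 point per mouse; lines join group means and each panel has its own vertical scale. Cyp7a1 and Alas1 are low at ZT2 only, Abcg5, Lpin1 and Ccne1 are high at ZT10, and Elovl3, Ppp1r3c, Insig2, Hsp90aa1, Hspa5 and Creld2 are lowest at ZT10.

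Of 44 genes of the urea cycle and amino acid metabolism 22 varied (50%, against 17.5% of all genes), 13 highest at ZT18 and 8 at ZT10. With the marker levels in the fit 15 varied, and with only the 8 arrays in the fit 12 did. Calls higher at ZT18 than at ZT10 numbered 8, and 3 with the marker levels or without ZT10 mouse 3. The ZT10 peaks of the list numbered 5, and 2 without ZT2 mouse 1. Asl, an enzyme of the urea cycle, stepped up from 5.53 and 5.78 at ZT2 to 6.31, 6.32 and 6.07 at ZT10 and 6.85, 6.78 and 7.04 at ZT18, with no overlap between groups (ZT18 minus ZT2 1.22 ± 0.11, adjusted p = 1.8e-07). Gldc, of glycine breakdown, was lowest at ZT10 (-1.37 ± 0.19 against ZT18, adjusted p = 3.7e-05). The amino acid transporters Slc38a3, Slc7a2, Slc38a2 and Slc38a4 and the serine dehydratase Sds all peaked at ZT10, with ZT10 minus ZT18 differences of 1.07, 1.11, 1.04, 1.06 and 1.05; the last 3 were picked out after their values were seen.

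Of 33 cell cycle genes 10 varied (30.3%, against 17.5% of all genes), 7 highest at ZT10. Ccne1, cyclin E1, measured -1.37 and -1.22 at ZT2, 1.20, 1.54 and 1.16 at ZT10, and -1.45, -0.88 and -0.67 at ZT18 (2.30 ± 0.29, adjusted p = 1.2e-05). Gadd45a, a growth arrest gene, peaked at ZT10 as well (1.39 ± 0.28, adjusted p = 0.0016), and Cdt1, which licenses replication origins, was lowest at ZT18 (1.39 ± 0.20 below ZT10, adjusted p = 7.2e-05). Of 33 ribosome biogenesis genes 12 varied (36.4%, against 17.5% of all genes), 8 of them highest at ZT18. The 12 became 6 with mouse number as a block. With only the 8 arrays in the fit they became 3, where 1619 of all 23109 genes varied. Among those highest at ZT18 were Nop16 (-0.97 ± 0.12, adjusted p = 9e-06) and Pes1 (-0.87 ± 0.19, adjusted p = 0.0032, and 0.051 with the marker levels). Rrp9 was highest at ZT10.

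Of 24 growth hormone and sex-biased genes 10 varied, and 8 were higher at ZT18 than at ZT10 (41.7% varied, against 17.5% of all genes). These counts were 6 and 3 without ZT10 mouse 3, and 6 and 4 with the marker levels in the fit. Nat8f5 measured 4.18 and 4.22 at ZT2, 3.32, 2.91 and 2.75 at ZT10, and 5.20, 5.28 and 5.15 at ZT18, 3 groups that did not overlap (-2.16 ± 0.19, adjusted p = 3.8e-07). Of 33 glutathione genes 6 varied (18.2%, near the 17.5% of all genes). Gstt2, a glutathione transferase, peaked at ZT10 (ZT10 minus ZT18 0.79 ± 0.21, adjusted p = 0.015, and 0.1 with the marker levels), and Gclc, which limits glutathione synthesis, was highest at ZT2 (ZT10 minus ZT2 -1.10 ± 0.17, adjusted p = 0.00019). G6pdx was lower at ZT10 than at ZT2 by 1.11 ± 0.27 (adjusted p = 0.0092), with ZT18 mouse 2 missing because its spot was marked as an outlier.

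Of 30 autophagy genes 9 varied (30%, against 17.5% of all genes), and 2 did with only the 8 arrays in the fit. Ulk1, the initiating kinase, was 1.22 ± 0.36 higher at ZT10 than at ZT18 (adjusted p = 0.025), and Bnip3 and Tfeb were lowest at ZT2. Of 28 acute phase genes 8 varied (28.6%, against 17.5% of all genes), and 3 with the marker levels in the fit. The latter share was no higher than that of all genes in that fit. The 8 became 3 without ZT10 mouse 3, and 5 without ZT2 mouse 1, ZT10 mouse 1, ZT18 mouse 2 or ZT18 mouse 3. Il6ra, a receptor chain for interleukin 6, peaked at ZT10 (ZT10 minus ZT2 1.61 ± 0.21, adjusted p = 1.7e-05), with a ZT18 call lost with the marker levels (adjusted p = 0.0092, then 0.071). Cebpd, a transcription factor of the acute phase, did too (1.16 ± 0.26, adjusted p = 0.0049). Of 20 iron genes 3 varied (15%), with Aco1, an iron regulatory protein, 0.61 ± 0.10 lower at ZT10 than at ZT18 (adjusted p = 0.0002), and of 25 interferon response genes 3 varied (12.0%). Xaf1 was the interferon gene with 0.84, 0.69 and 0.82 at ZT10 and 0.44, 0.46 and 0.02 at ZT18 (0.55 ± 0.17, adjusted p = 0.027, and 0.091 with the marker levels), and it changed sign when the median of its probes was used. The shares in these last 2 lists are near or below that of all genes. The median range over the 3 times was 2.38 for clock outputs, 2.84 for clock repressors and 1.1 for heat shock genes, against 0.34 for all genes tested.

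The steady mice of 30 weeks, sampled at the same times with the same numbers, gave 2587 genes that varied with time (11.2%). Of the 4054 genes called at 12 weeks 1888 (46.6%) were also called at 30 weeks, which is 73.0% of the 30-week calls, and 1581 of the 1888 had the highest mean at the same time. Across all 23109 genes the ZT10 minus ZT18 difference at 12 weeks correlated with that at 30 weeks (Pearson's r = 0.65), as a description, since genes are not independent replicates and muscle genes were higher at ZT18 at both ages. The test of time of day by age called 34 genes (0.147%), and that of the ZT10 minus ZT18 difference by age called 0 (840 at an unadjusted p under 0.05). Arntl measured 1.89, -4.35 and 1.46 on average at ZT2, ZT10 and ZT18 at 30 weeks, Dbp 0.57, 6.92 and 2.23, and Hspa5 7.98, 6.45 and 7.53. For Arntl only 1 of 3 ZT10 mice of 30 weeks was well above background. None of the genes in the 20 lists was called in the test by age. Only 2 genes with plain symbols were. Sly, a testis gene of a multicopy family, was near -0.75 at ZT2 at 12 weeks (-0.86 and -0.64) and averaged -4.69 at ZT2 at 30 weeks, where it was not well above background. It belongs to the dim genes raised on the ZT2 arrays of 12 weeks. Chst9, a sulfotransferase, was not well above background on any of the 8 arrays at 12 weeks and averaged -3.02 at ZT2 at 30 weeks.

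**Figure D5:**
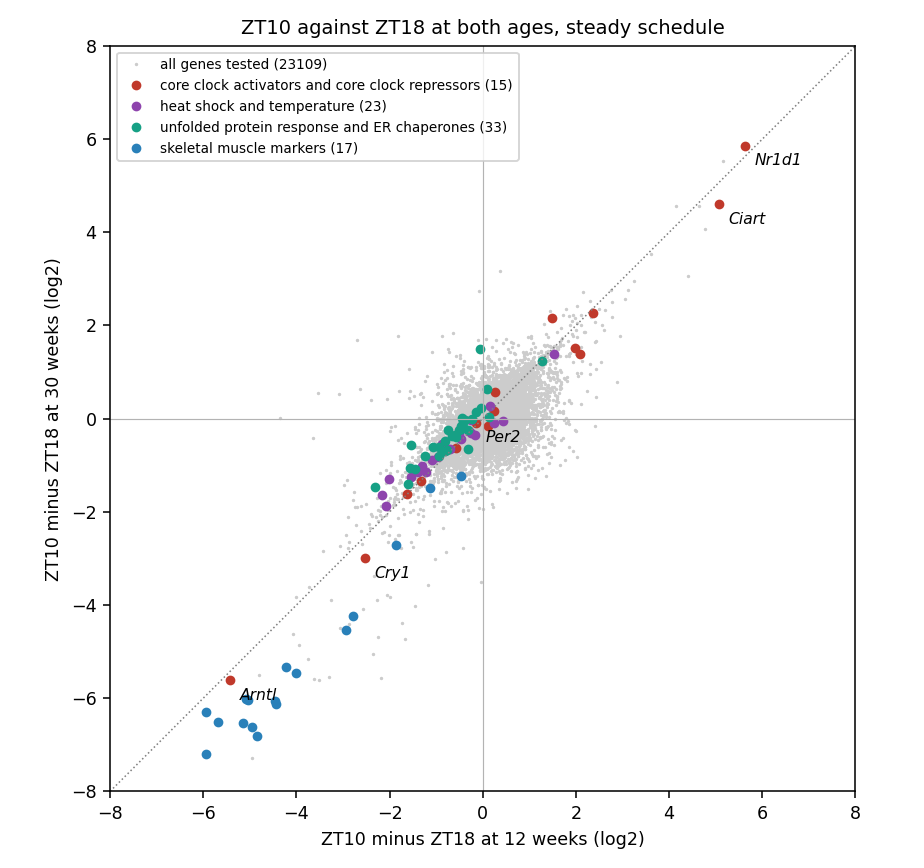
ZT10 minus ZT18 difference (log2) at 30 weeks against that at 12 weeks, 1 point per gene for all 23109 genes tested, with clock, heat shock, unfolded protein response and skeletal muscle genes in colour; the dotted line marks equal differences. Nr1d1 and Ciart lie at the upper right and Arntl and Cry1 at the lower left, near the line, and muscle markers lie at the lower left.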

How the data were processed

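Per the file headers, the authors scanned 1-colour Agilent arrays and deposited Feature Extraction 11.0.1.1 intensity values (the submitters' processing notes name 9.1), already background-corrected in the processed signal. The authors also deposited a table of normalized log2 values, whose rows were matched to probes, and all 32 columns were closest to the scanner values of the same sample (lowest r 0.995). Here processed signals were divided by the 75th percentile of their array and log2 transformed. Control and outlier spots and dim probes were left out, and the brightest of 30487 probes stood for each of 23109 genes, 14082 with a symbol.

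Groups came from the titles. Limma 3.58.1 in R 4.3.3 fitted 12 group means over all 32 arrays with slide as a random block (correlation 0.244), and p-values were adjusted by Benjamini-Hochberg over all genes. The procedure was tested on simulated data. The number of arrays limits the precision. Alternatives were background correction, scaling, the authors' table, the slide, mouse number, filters, probe choice, marker levels and leaving out mice. The members and gene lists were chosen with earlier results of these data known. Some results are not reported here. Named genes were the core clock genes, the 8 largest peaks and 4 largest troughs at each time and the 8 largest differences each way between ZT10 and ZT18 (plain symbol, mice not overlapping, both fits), up to 4 called members of each list, the 6 largest interactions with age, and genes whose promoter is shown. Other list members given with values were chosen after their values were seen.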

Additional observations from a re-analysis of the deposited data

Results flagged for a closer look

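The limma test of time of day by age called Sly and Chst9 (adjusted p = 0.018 for each), but both rest on values near background, and the test called 0 genes when signal above background was required on all 8 arrays. For Sly the fitted 12-week minus 30-week difference ranged over 4.65 log2 units across the 3 times. This is no measured size, since Sly was well above background only in the ZT2 mice of 12 weeks, whose dim genes were raised together and for which age, time and handling cannot be told apart. For Chst9 the fitted range was 3.22, likewise no measured size: both ZT2 mice of 30 weeks were well above background, and 0 of the 8 mice of 12 weeks.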

How the results depend on the processing

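Counts in this paragraph are of genes called, and the cause of each change was not tested. ZT2 had only 2 mice. With normexp background correction, run on the median spot signal because the files used here hold no mean signal, ZT18 against ZT2 gave 731, ZT18 peaks 143 and time by age 15. Quantile scaling gave 152 ZT18 peaks. The authors' table gave 848 ZT10 peaks and 0 genes for time by age. With only the 8 arrays in the fit, the 3 times gave 1619, ZT10 against ZT18 1530, ZT10 against ZT2 851, ZT18 against ZT2 379, and peaks 123, 186 and 60 at ZT2, ZT10 and ZT18. With slide as a fixed block the first 2 counts were 2689 and 2115, ZT18 against ZT2 gave 744, ZT18 peaks 72 and time by age 21. With no filter on dim probes ZT18 against ZT2 gave 772 and ZT18 peaks 120. Requiring signal above background on all 8 arrays gave 129 ZT2 peaks and 0 genes for time by age. With muscle and acinar levels the 3 times gave 2583, ZT10 against ZT18 1709, ZT18 against ZT2 406, and peaks 127, 329 and 46. Without ZT18 mice 1 and 2, chosen after seeing the data, ZT10 against ZT18 gave 1783, ZT2 peaks 127, ZT10 peaks 247, time by age 70 and the ZT10 minus ZT18 difference by age 21.

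Mouse numbers did not pair the animals (same-number correlations between ZT10 and ZT18 of -0.10, 0.03 and -0.25). With the number as a replicate block the 3 times gave 2953, ZT10 against ZT18 2588, ZT10 against ZT2 1235, ZT18 against ZT2 773, peaks 134, 309 and 165, and time by age 17.

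Leaving out 1 mouse at a time gave 2895 to 3794 over the 3 times, 1797 to 3271 for ZT10 against ZT18, 968 to 1967 for ZT10 against ZT2, 351 to 1312 for ZT18 against ZT2, 90 to 195 ZT2 peaks, 264 to 456 ZT10 peaks, 59 to 265 ZT18 peaks, 25 to 41 for time by age and 0 for its ZT10 minus ZT18 part. Counts moved by over 1.5 times without ZT10 mouse 3 (ZT10 against ZT18 1797, ZT18 peaks 159), ZT10 mouse 2 (ZT10 peaks 331), ZT18 mouse 2 (ZT18 against ZT2 639, ZT18 peaks 99), ZT18 mouse 3 (713 and 115), ZT2 mouse 1 (ZT10 against ZT2 1053, ZT18 against ZT2 351, peaks 90, 334 and 73) and ZT2 mouse 2 (968, 365, 112, 264 and 59). The share of ZT10 against ZT18 calls higher at ZT10 was 45.5%, and ran from 37.1% without ZT10 mouse 2 to 53.1% without ZT10 mouse 3. Of 85 named genes called for ZT10 against ZT18, 57 were called under every one of the 20 settings that held them. The difference changed sign for Vmn2r65 with normexp (-0.073) and for Xaf1 with the median of its probes (-0.056). A comparison within slides was not run, as no slide held 2 of the 8 arrays. Signal near background limits the ZT2 peaks and the calls by age.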
